A study of Homo sapiens with 6 samples.

Results

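The BCL2 family is described here through 10 genes: the survival genes MCL1, BCL2L1, BCL2L2, BCL2A1 and BCL2, the effector genes BAX, BAK1 and BOK, and the relatives BCL2L13 and BCL2L12. They were taken by symbol from a count table of 58735 gene rows, where each symbol had 1 row, and all 10 were among the 18751 genes that passed the filter on low counts. RNA was sequenced from 3 samples of untreated PANC1, an established human line of pancreatic duct carcinoma. Another 3 samples came from its oxaliplatin-resistant subline PANC1OR, with 1 library per sample. The sample titles number them 1 to 3 and do not say if each was a separate culture. Oxaliplatin kills cells by linking platinum to their DNA, and the subline came from passages of PANC1 in rising amounts of it. Both lines were grown in DMEM with serum, and the sources used here do not say if PANC1OR was under drug when RNA was taken. Each line is a single one, so p-values reflect how the libraries of these 2 lines vary and say nothing of other resistant lines.

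Proteins of this family decide whether the outer mitochondrial membrane stays closed. The survival proteins hold BAX and BAK1 in check and are themselves bound by BH3-only proteins, which rise or become active under stress. When BAX or BAK1 is released it forms pores, cytochrome c escapes to the cytosol, and the apoptosome activates caspases. Platinum adducts on DNA are among the stresses that reach this switch.

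BCL2A1, BCL2L1 and BCL2L2, all survival genes, were higher in PANC1OR in the quasi-likelihood test of edgeR at a Benjamini-Hochberg adjusted p under 0.05. Their log2 fold changes (PANC1OR minus PANC1) were 1.56 ± 0.26 (SE), 1.28 ± 0.28 and 0.67 ± 0.19. So 3 of the 10 genes rose, where 10.3% of all tested genes did, and 0 fell, where 7.5% did. At an unadjusted p under 0.05, 6 of the 10 were higher and 0 lower by the same edgeR test, beside 16.5% and 13.4% of all tested genes. DESeq2's Wald test called 4 higher and 0 lower, beside 12.1% and 9.56%. The median log2 fold change was 0.57 over the 10 genes and 0.04 over all tested genes. The levels of the lines did not overlap for 6 of the 10 genes, in each case with PANC1OR higher, beside 36.5% of all tested genes without overlap in either direction.

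The libraries held 10199268 to 26394388 reads counted to genes. PANC1OR replicate 3 stood apart by GC content: its median log2 difference from the other PANC1OR libraries was 1.32 for genes over 60% GC and -0.95 for genes under 40% GC. PANC1 replicate 2 deviated the same way, by 0.34 and -0.25. The duct keratin genes KRT8 and KRT18 lay at 241 to 779 CPM (TMM-scaled counts per 1e6 reads) in all 6 libraries, and KRT7 at 0.428 to 3.38. KRT19 was called lower, at 243 to 465 CPM in PANC1 and 15.7 to 36.9 in PANC1OR (log2 fold change -3.81, adjusted p = 0.000635). EPCAM, an epithelial adhesion gene, was at 13.0 to 16.1 CPM in PANC1 and 5.78 to 9.61 in PANC1OR (log2 fold change -0.79, adjusted p = 0.0726), and VIM at 2727 to 2807 and 1521 to 2180 (-0.51, 0.132), both called lower once GC trends were offset (0.00415 and 0.0183). Of the 4 leukocyte markers given, PTPRC, CD3E and LYZ were at 0 to 0.4996 CPM. The fourth, CD14, was called higher, at 0.184 to 0.374 in PANC1 and 1.91 to 4.62 in PANC1OR (log2 fold change 3.24, adjusted p = 0.00412). These 4 summed to 0.245 to 0.436 CPM in PANC1 and to 2.21 to 4.71 in PANC1OR, and their part in the results was not tested. Of the 5 fibroblast markers COL1A1 was at 80.4 to 95.3 CPM in PANC1 and 109 to 291 in PANC1OR (log2 fold change 0.98, adjusted p = 0.123, and 0.00196 with GC offsets) and PDGFRB at 0.374 to 0.795 and 0.937 to 1.24 (0.93, 0.169). COL1A2, DCN and LUM were at 0 to 0.112 CPM in the 6 libraries. The 5 summed to 80.9 to 95.8 CPM in PANC1 and 110.0 to 292 in PANC1OR, and their part in the results was not tested. Endothelial and acinar marker sums stayed under 1 CPM in every library, as did the endocrine sum, where INS and GCG had no reads and CHGA 0.104 to 0.436 CPM. A lower level in bulk RNA can come from fewer cells with the transcript or from less of it per cell, and these cannot be told apart here.

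The sequences before the starts of BCL2A1 and BCL2L1 are shown because these 2 genes had the highest log2 fold changes among the called ones. The 250 bases before the RefSeq start (GRCh38.p14) are chr15:79971197-79971446 on the minus strand for BCL2A1 and chr20:31723964-31724213 on the minus strand for BCL2L1, which has a second RefSeq start not shown. Capitals mark a match to the STAT motif TTCNNNGAA, found 168 to 160 bases before the BCL2A1 start.
BCL2A1: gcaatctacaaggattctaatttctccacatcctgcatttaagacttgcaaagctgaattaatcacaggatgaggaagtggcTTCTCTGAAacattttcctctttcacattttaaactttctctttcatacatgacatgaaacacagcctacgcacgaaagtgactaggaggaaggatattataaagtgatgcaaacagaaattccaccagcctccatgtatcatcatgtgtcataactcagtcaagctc
BCL2L1: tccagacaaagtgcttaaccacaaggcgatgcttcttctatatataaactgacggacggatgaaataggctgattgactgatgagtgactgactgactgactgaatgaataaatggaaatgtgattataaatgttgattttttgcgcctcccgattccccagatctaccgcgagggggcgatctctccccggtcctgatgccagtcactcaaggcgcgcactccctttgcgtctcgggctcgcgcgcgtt

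Both strands of such windows were searched for that motif, the AP-1 motif TGACTCA, the CRE motif TGACGTCA and the kappaB consensus. No match to the other motifs lay in these 2 windows. Of 35116 RefSeq windows of the same length, 6.57% held the STAT motif, 4.2% the AP-1 motif, 1.65% the CRE motif and 6.88% the kappaB consensus. The windows differed in base composition, with 38.8% GC before BCL2A1 and 50.0% before BCL2L1.

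**Figure D1:**
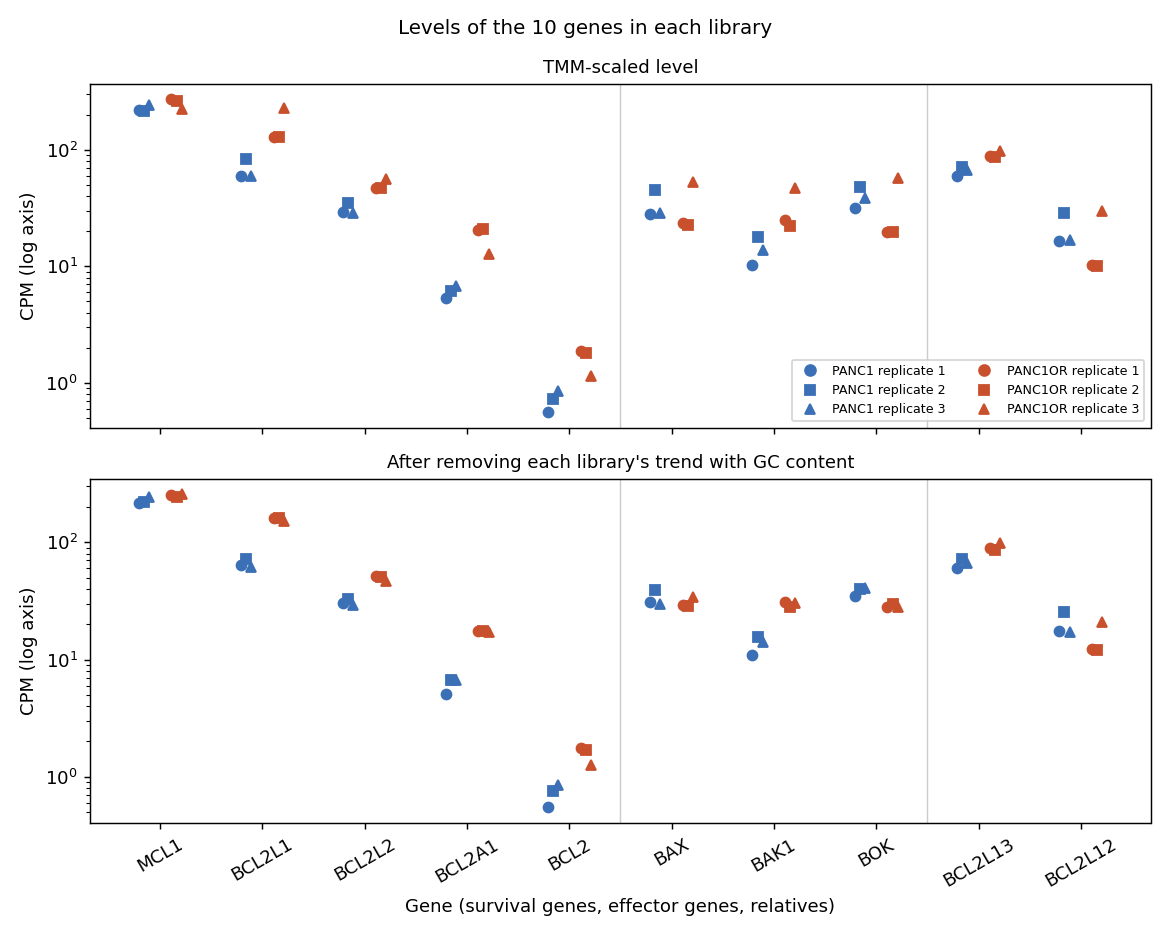
Level of each of the 10 genes in each library, in CPM on a log axis, with PANC1 in blue and PANC1OR in red and a marker shape per replicate; the upper panel is TMM-scaled and the lower one has the trend of each library with GC content removed. PANC1OR replicate 3 is above its companions for BCL2L1, BAX, BAK1, BOK and BCL2L12 in the upper panel. In the lower panel the 3 PANC1OR levels of BCL2L1, BAK1 and BOK lie close together. Replicate 3 stays above there for BCL2L12 (20.9 CPM against 12.3 and 12.1) and BAX (34.2 against 29.4 and 28.5).

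MCL1, a short-lived survival protein that binds BAK1 and BIM, had the highest mean level of the 10 genes in both lines, though BCL2L1 was above it in PANC1OR replicate 3. It stood at 220.4, 215 and 245 CPM in PANC1 replicates 1 to 3 and at 273, 265 and 226 CPM in PANC1OR replicates 1 to 3. The lines overlapped, since PANC1OR replicate 3 lay below PANC1 replicate 3. The log2 fold change was 0.17 ± 0.17 (95% confidence interval -0.22 to 0.56, adjusted p = 0.573), so a doubling or a halving lies outside the interval. MCL1 was called higher in 1 of 15 alternatives, with PANC1 replicate 2 and PANC1OR replicate 3 both absent (0.19 ± 0.08, adjusted p = 0.0434). Its adjusted p ran up to 0.85. MCL1 (ENSG00000143384) lies on chromosome 1 at 150560895 to 150579738 and shares 5.3% of its exon bases with ADAMTSL4-AS1, which was at 4.62 to 8.84 CPM.

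BCL2L1 encodes BCL-XL, a survival protein that binds BAX, BAK1 and most BH3-only proteins; a short splice form, BCL-XS, promotes death, and counts per gene do not separate the 2. The level was 59.3, 82.9 and 60.1 CPM in PANC1 and 131, 130.4 and 229 CPM in PANC1OR. Every PANC1OR library was above every PANC1 library, with PANC1OR replicate 3 well above replicates 1 and 2. The difference was 2.42-fold (log2 1.28, interval 0.64 to 1.92, adjusted p = 0.0153). Without PANC1OR replicate 3 it was 0.95 ± 0.15 (adjusted p = 0.00158), and the adjusted p passed the threshold upward without PANC1 replicate 1 (0.0848) or PANC1 replicate 3 (0.0912), within a range of 3.18e-09 to 0.0912 over the 15 alternatives. BCL2L1 (ENSG00000171552) lies on chromosome 20 at 31664452 to 31723989, and 41.3% of its exon bases are shared with ABALON, a non-coding gene on the opposite strand. ABALON itself had 4.83 to 5.43 CPM in PANC1 and 7.89 to 9.83 in PANC1OR (log2 fold change 0.80 ± 0.22, adjusted p = 0.0401). Its adjusted p was 0.08 to 0.179 when a single library was dropped, PANC1OR replicate 3 excepted. Without a stated strand setting, reads on the bases shared with ABALON cannot be assigned.

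BCL2L2 encodes BCL-W, a survival protein close to BCL-XL. Its levels were 29.6, 35.1 and 28.9 CPM in PANC1 and 46.8, 46.7 and 55.8 CPM in PANC1OR, without overlap. The difference was 1.59-fold (log2 0.67, interval 0.23 to 1.12) and the adjusted p of 0.0464 was just under the threshold. Leaving out any 1 library other than PANC1OR replicate 3 took it over the threshold, with adjusted p from 0.0692 to 0.215, and without PANC1OR replicate 3 it was 0.00631. BCL2L2 (ENSG00000129473, chromosome 14 at 23298790 to 23311751) shares 16.8% of its exon bases with the read-through gene BCL2L2-PABPN1, which was listed at 0.165 to 1.2 CPM. It shares 6.5% with PPP1R3E on the opposite strand, at 11.9 to 12.5 CPM in PANC1 and 13.2 to 20.6 in PANC1OR. Without a stated strand setting, reads on the bases shared with PPP1R3E cannot be assigned.

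BCL2A1 encodes BFL-1, a small survival protein that holds BIM and NOXA and is a known target of NF-kappaB. It was at 5.35, 6.16 and 6.85 CPM in PANC1 and at 20.6, 20.8 and 12.9 CPM in PANC1OR. The lowest PANC1OR library, replicate 3, was still above every PANC1 library. The difference was 2.96-fold (log2 1.56, interval 0.96 to 2.17, adjusted p = 0.00475) and was called under each of the 15 alternatives, with adjusted p from 2.29e-08 to 0.0369. BCL2A1 (ENSG00000140379) lies on chromosome 15 at 79960892 to 79971196, and the annotation used has no gene overlapping it.

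BCL2, the founding survival gene, was the scarcest of the 10. It had 9, 7 and 14 reads in PANC1 and 50, 29 and 14 in PANC1OR, or 0.5603, 0.731 and 0.856 CPM against 1.87, 1.81 and 1.16. Levels did not overlap, and the log2 fold change was 1.18 ± 0.35 (interval 0.37 to 2.00) with an adjusted p of 0.0536, just above the threshold. It was called in 4 of 15 alternatives, 1 of them without PANC1OR replicate 3 (adjusted p = 0.00794). BCL2 (ENSG00000171791) lies on chromosome 18 at 63123346 to 63320128.

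Of the effectors, BAK1, which sits in the outer mitochondrial membrane, was at 10.2, 17.8 and 13.8 CPM in PANC1 and 25.0, 22.4 and 47.3 CPM in PANC1OR. The lines did not overlap, and PANC1OR replicate 3 was the highest of the 6 libraries. The log2 fold change of 1.18 ± 0.35 (interval 0.38 to 1.99) had an adjusted p of 0.0515, just above the threshold. BAK1 was called in 9 of 15 alternatives, among them DESeq2's Wald test (adjusted p = 0.0124), GC offsets (0.000253) and the fit without PANC1OR replicate 3, where the log2 fold change was 0.78 ± 0.21 (0.0172). Over all 15, its adjusted p ran from 1.05e-05 to 0.195. BAK1 (ENSG00000030110) lies on chromosome 6 at 33572547 to 33580293 and shares 4.1% of its exon bases with GGNBP1 on the opposite strand, which had at most 0.495 CPM.

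BAX, the effector that moves from the cytosol to mitochondria, stood at 28.4, 45.2 and 28.9 CPM in PANC1 and 23.7, 22.7 and 53.1 CPM in PANC1OR. The lines overlapped: PANC1OR replicate 3 was the highest of all libraries and PANC1OR replicates 1 and 2 were the lowest. The log2 fold change was -0.05 ± 0.37 (interval -0.91 to 0.81, adjusted p = 0.956), an interval too wide to show whether BAX was alike in the lines. Without PANC1OR replicate 3 it was -0.56 ± 0.21 (adjusted p = 0.0573), and with GC offsets -0.11 ± 0.14 (0.57). BAX was called lower in 1 of 15 alternatives, with PANC1 replicate 2 and PANC1OR replicate 3 both absent (-0.33 ± 0.09, adjusted p = 0.00497), and its adjusted p ran up to 0.963. BAX (ENSG00000087088) lies on chromosome 19 at 48954815 to 48961798.

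BOK, an effector that is controlled by protein degradation and does not need the other 2, was at 31.5, 48.6 and 39.0 CPM in PANC1 and at 19.7, 19.9 and 57.5 CPM in PANC1OR. PANC1OR replicates 1 and 2 were below every PANC1 library and replicate 3 above every one. The 6 libraries gave a log2 fold change of -0.30 ± 0.43 (interval -1.30 to 0.70, adjusted p = 0.709). Without PANC1OR replicate 3, BOK was lower in PANC1OR, at -1.01 ± 0.18 (adjusted p = 0.0026). That fit keeps only PANC1OR replicates 1 and 2, which nearly coincided for BOK. With GC offsets the log2 fold change was -0.42 ± 0.11 (adjusted p = 0.0124). Over the 15 alternatives the adjusted p ran from 4.02e-06 to 0.965. BOK (ENSG00000176720) lies on chromosome 2 at 241551424 to 241574131 and had the highest GC content of the 10, at 66.0%.

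The relatives differ from the others in role. BCL2L13, also called BCL-Rambo, is a mitochondrial membrane protein with a part in mitophagy, and BCL2L12 has been described as an inhibitor of caspases and p53. BCL2L13 (ENSG00000099968, chromosome 22 at 17628855 to 17730855) was at 60.4, 72.2 and 67.1 CPM in PANC1 and 89.6, 87.2 and 97.8 in PANC1OR. These did not overlap and differed little within a line, and the log2 fold change of 0.46 ± 0.17 (interval 0.07 to 0.85) did not pass (adjusted p = 0.111), while it did without PANC1OR replicate 3 (0.40 ± 0.11, 0.0212). BCL2L12 (ENSG00000126453, chromosome 19 at 49665142 to 49673916) was at 16.5, 28.7 and 16.9 CPM in PANC1 and 10.3, 10.1 and 29.6 in PANC1OR, the same order of libraries as for BAX. Its log2 fold change of -0.32 ± 0.46 (adjusted p = 0.71) became -1.01 ± 0.25 (0.0112) without PANC1OR replicate 3 and -0.41 ± 0.24 (0.218) with GC offsets. It shares 25.9% of its exon bases with IRF3 on the opposite strand, which was at 22.2, 45.1 and 26.0 CPM in PANC1 and 21.0, 21.6 and 55.4 in PANC1OR. Reads on the bases shared with IRF3 cannot be assigned without a stated strand setting.

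**Figure D2:**
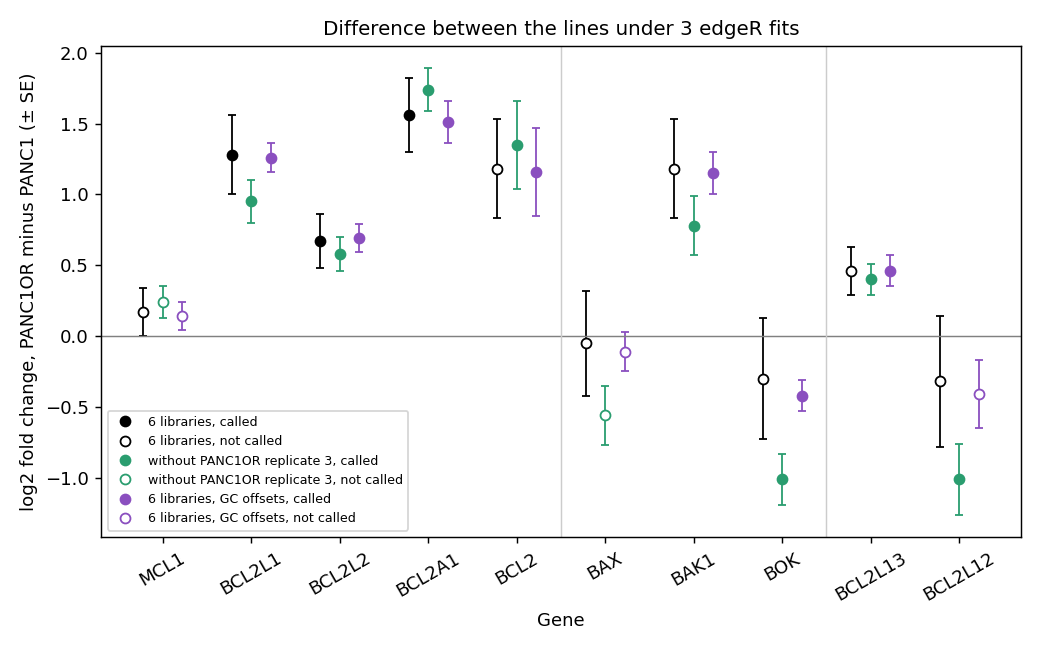
Log2 fold change of each gene (PANC1OR minus PANC1) with its SE in 3 edgeR fits, filled where the adjusted p was under 0.05. BCL2A1, BCL2L1 and BCL2L2 are filled in each fit, and BOK moves from -0.30 with 6 libraries to -1.01 without PANC1OR replicate 3.

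Libraries within a line therefore differed most for the GC-rich genes of the set. In PANC1OR, replicate 3 exceeded the mean of replicates 1 and 2 by 1.54 in log2 for BOK and BCL2L12, 1.2 for BAX, 1.00 for BAK1 and 0.81 for BCL2L1, whose transcripts have 56.6% to 66.0% GC. It stood at -0.68 for BCL2A1 (40.9% GC), -0.67 for BCL2 (45.6%) and -0.25 for MCL1 (44.7%). Over all tested genes with 55% to 60% GC the same difference had a median of 0.78, and with 40% to 45% GC of -0.47, so BCL2L12 lay 1.54 high in a bin with a median of 0.78. The fit without PANC1OR replicate 3 keeps only PANC1OR replicates 1 and 2, which lay close together for each of the 10 genes. Its SEs and calls take the spread within PANC1OR from that pair alone. In that fit, 6 of the 10 genes were higher (BCL2A1, BCL2, BCL2L1, BAK1, BCL2L2 and BCL2L13) where 22.1% of 19650 tested genes were. Lower were 2 (BOK and BCL2L12) where 22.0% were. With offsets for the GC trend, the same 6 were higher beside 19.9% of genes, and 1, BOK, was lower beside 19.1%. MCL1 and BAX passed in neither fit.

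**Figure D3:**
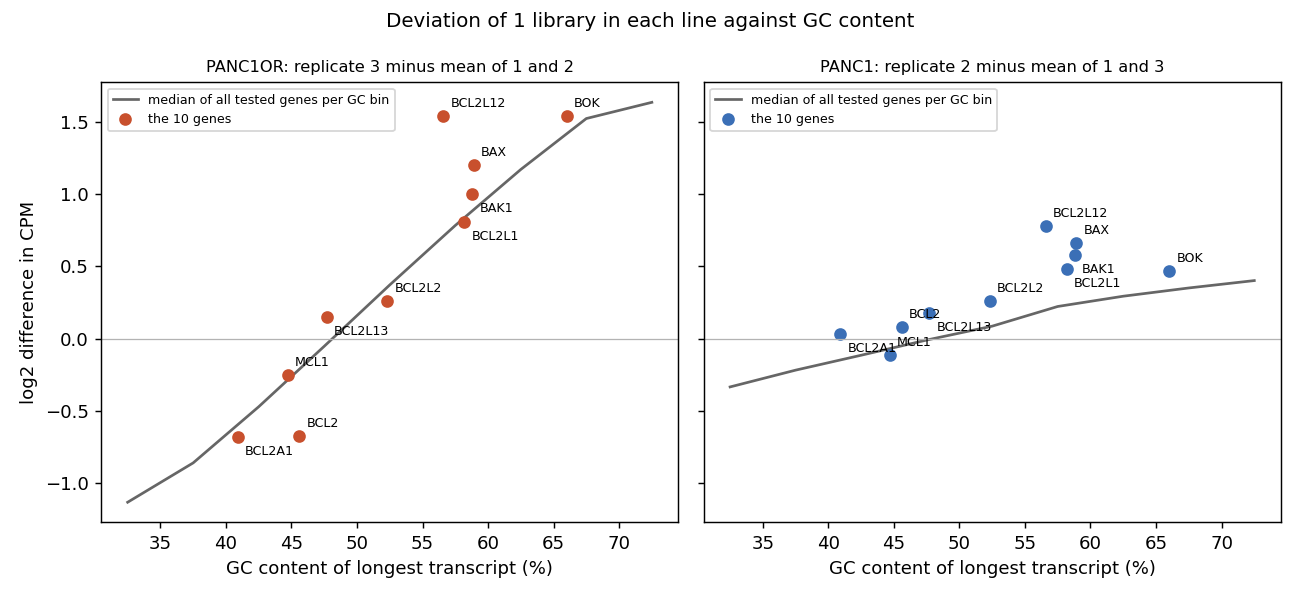
Log2 difference of 1 library from the mean of the other 2 of its line, against the GC content of the longest transcript in percent, for PANC1OR replicate 3 (left) and PANC1 replicate 2 (right); the line is the median of all tested genes in bins of 5 percentage points and the points are the 10 genes. In the left panel the 5 genes of 56.6% to 66.0% GC lie at 0.81 to 1.54 and BCL2A1, BCL2 and MCL1 at -0.68 to -0.25, with BCL2L12 (1.54) as high as BOK and well above the line.

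Levels of different genes were compared per kilobase of exon, without adjustment for GC content. In PANC1 the order of means was MCL1 (36.4 ± 2.59 CPM per kb, SD, n = 3), BCL2L1 (16.1 ± 3.20), BOK (14.8 ± 3.19), BAX (13.2 ± 3.69), BCL2L13 (8.69), BCL2L12 (7.31), BCL2L2 (6.45), BAK1 (6.29), BCL2A1 (6.15) and BCL2 (0.0568). Ranges of neighbours overlapped except between MCL1 and BCL2L1, BAX and BCL2L13, and BCL2A1 and BCL2. In PANC1OR the order was MCL1 (40.9 ± 4.06), BCL2L1 (38.9 ± 13.5), BCL2A1 (18.2 ± 4.52), BAK1 (14.3 ± 6.19), BAX (12.8), BOK (12.1), BCL2L13 (11.9), BCL2L2 (10.3), BCL2L12 (5.89) and BCL2 (0.128). Here MCL1 and BCL2L1 overlapped, BCL2L1 stood clear of BCL2A1, every neighbouring pair from BCL2A1 to BCL2L12 overlapped, and BCL2 stood clear below. In PANC1OR replicate 3 BCL2A1 (12.95 CPM per kb) lay below BOK (21.5), BAK1 (21.4) and BAX (20.5).

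The summed per-length level of the 5 survival genes was 61.1, 67.8 and 66.6 CPM per kb in PANC1 and 105.5, 104.4 and 115 in PANC1OR, without overlap. MCL1 made up 58.0%, 50.9% and 59.1% of that sum in PANC1 and 41.6%, 40.8% and 31.4% in PANC1OR. BCL2L1 made up 23.1%, 29.2% and 21.5%, then 29.5%, 29.8% and 47.3%, and BCL2A1 8.81%, 9.14% and 10.3%, then 19.6%, 20.0% and 11.2%. MCL1 thus took a smaller share in PANC1OR and BCL2L1 and BCL2A1 larger ones. The gaps between the lines were narrow for BCL2L1 (29.2% against 29.5%) and BCL2A1 (10.3% against 11.2%). No adjustment was made here for GC content, which was 58.2% in BCL2L1, 44.7% in MCL1 and 40.9% in BCL2A1. With 3 libraries against 3 an exact permutation test cannot go below p = 0.1, and each of these shares reached that value (two-sided).

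The sum of the 3 effectors was 27.4, 43.6 and 32.0 CPM per kb in PANC1 and 27.8, 26.3 and 63.4 in PANC1OR, so the lines overlapped. BAK1 gave 16.9%, 18.4% and 19.5% of it in PANC1 and 40.7%, 38.5% and 33.7% in PANC1OR, without overlap. BOK gave 42.9%, 41.5% and 45.5%, then 26.4%, 28.2% and 33.9%, and BAX 35.0% to 40.2%, then 32.4% to 33.3%. The log2 ratio of the effector sum to the survival sum was -1.16, -0.64 and -1.06 in PANC1 and -1.92, -1.99 and -0.86 in PANC1OR. These overlapped through PANC1OR replicate 3 (exact permutation p = 0.3). The sums were not adjusted for GC content, which was 58.8% to 66.0% in the effectors, 44.7% in MCL1 and 40.9% in BCL2A1. The GC trend of each library was thus left in the ratio, and its overlap does not show that the lines were alike in it.

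**Figure D4:**
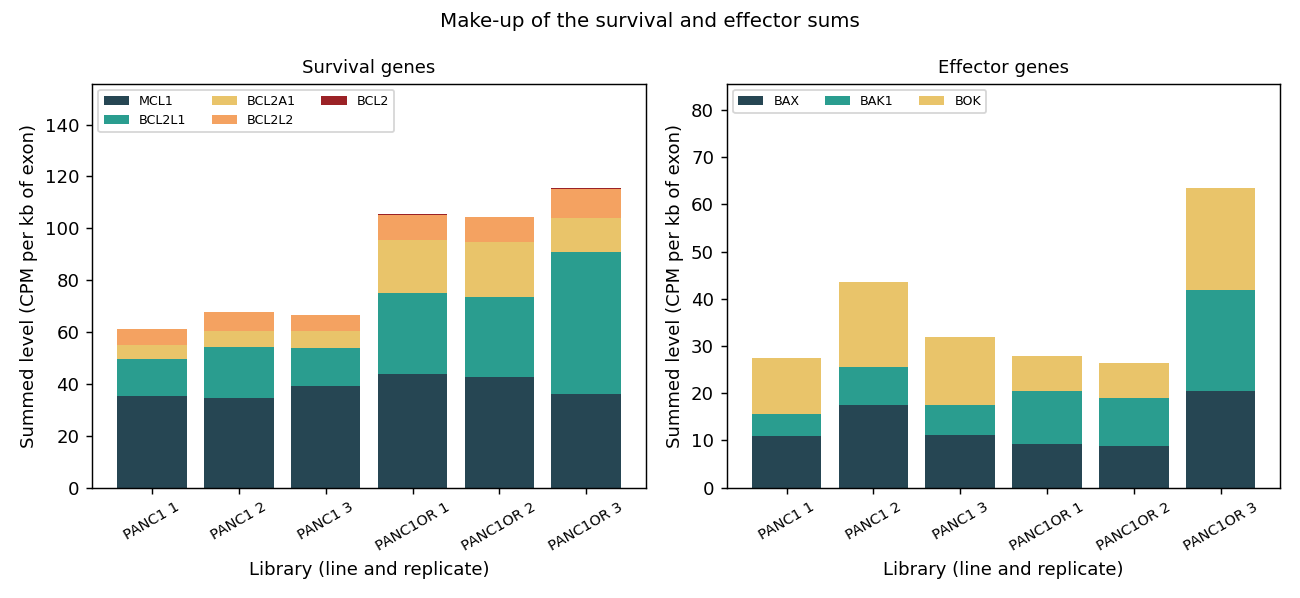
Stacked per-length levels (CPM per kb of exon, axis from 0, not adjusted for GC content) of the survival genes (left) and effector genes (right) in each library. The survival sum is 61.1 to 67.8 in PANC1 and 104.4 to 115 in PANC1OR, and the BAK1 segment takes 33.7% to 40.7% of the effector sum in PANC1OR against 16.9% to 19.5% in PANC1.

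BAX, BAK1 and BCL2L1 have nearly the same GC content (58.9%, 58.8% and 58.2%), so their ratios within a library were also compared. These pairs were chosen after their levels were seen. The log2 ratio of BAK1 to BAX was -1.25, -1.12 and -0.85 in PANC1 and 0.30, 0.21 and 0.06 in PANC1OR. All 3 PANC1OR libraries, replicate 3 among them, lay above all PANC1 libraries. The log2 ratio of BAX to BCL2L1 was -0.36, -0.18 and -0.36 in PANC1 and -1.76, -1.83 and -1.41 in PANC1OR, again without overlap. The ratio of BAK1 to BCL2L1 was alike in its range, from -1.61 to -1.2 in PANC1 and from -1.62 to -1.35 in PANC1OR. The exact two-sided permutation p was 0.1 for the first 2 ratios, the smallest this design allows, and 0.5 for the third. Since the levels were seen first, these p-values add no support. The third ratio also follows from the first 2.

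**Figure D5:**
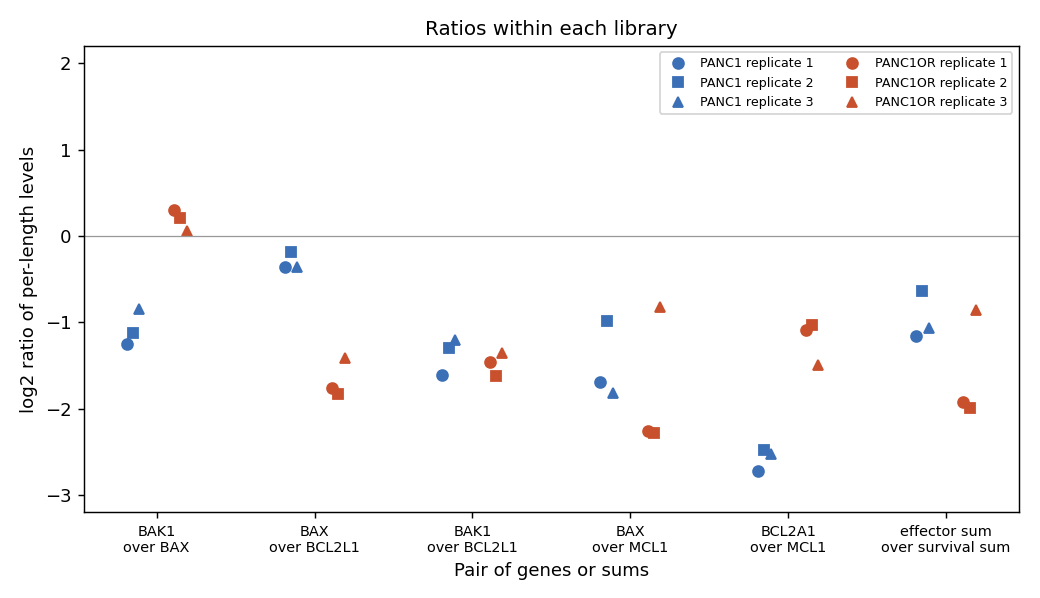
Log2 ratio of per-length levels of the named genes or sums within each library, PANC1 in blue and PANC1OR in red with a marker shape per replicate. BAK1 over BAX lies at -1.25 to -0.85 in PANC1 and 0.06 to 0.30 in PANC1OR, while the effector to survival ratio, not adjusted for GC content, overlaps.

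The genes around this switch were counted in 7 lists. Of 8 BH3-only genes, whose products trigger the effectors or block the survival proteins, 6 were tested, 2 rose and 1 fell. PMAIP1, which encodes NOXA, a partner of MCL1 and BFL-1, was at 3.49 to 4.70 CPM in PANC1 and 29.7, 27.4 and 16.2 in PANC1OR (log2 fold change 2.58, adjusted p = 0.000748). BMF, which senses cytoskeletal stress, was at 0.872 to 2.14 CPM and then 4.81 to 5.95 (1.77, 0.00996). BCL2L11, which encodes BIM, an activator bound by all survival proteins, was at 36.7 to 47.2 CPM and then 16.7 to 18.8 (-1.29, 0.00312). The list's median was 0.27.

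Of 10 apoptosome and caspase genes, which act after the pore, 0 rose and 0 fell by edgeR's test, while CASP8, an initiator caspase gene, was higher at an unadjusted p under 0.05 and by DESeq2's Wald test, the 1 gene of the list to pass either. It was at 42.1 to 43.1 CPM in PANC1 and 77.1, 75.6 and 53.6 in PANC1OR (edgeR adjusted p = 0.0505), and is named after its value was seen. Without PANC1OR replicate 3, 4 rose, and with GC offsets 4 rose and 1 fell. Of 7 inhibitor-of-apoptosis genes and their antagonists 0 changed, 0 of them at an unadjusted p under 0.05 or by DESeq2, with 1 risen and 1 fallen without PANC1OR replicate 3. With GC offsets 0 rose and 2 fell, BIRC2 (adjusted p = 0.000472) and BIRC3 (0.00155), which were named after their values were seen. Of 13 genes for mitochondrial channels, membrane dynamics and calcium release, ITPR1, an inositol trisphosphate receptor of the family that BOK and BCL-XL bind, rose from 30.5 to 40.6 CPM up to 185 to 197.5 CPM (2.41 ± 0.19, adjusted p = 0.000109). VDAC1, a channel of the outer mitochondrial membrane, fell from 245 to 282 CPM down to 129.6 to 165 (-0.79 ± 0.18, 0.0179), and its adjusted p lay at 0.0558 to 0.0814 when a single library was dropped, PANC1OR replicate 3 excepted. The counts of this list were 2 risen and 4 fallen without PANC1OR replicate 3, and 2 and 5 with GC offsets. Of 8 genes for enzymes that control MCL1 turnover, GSK3B, a kinase that marks MCL1 for degradation, fell (-0.87 ± 0.22, 0.0278). Dropping PANC1 replicate 1, PANC1 replicate 3, PANC1OR replicate 1 or PANC1OR replicate 2 took the adjusted p of GSK3B to 0.0604 to 0.128. The ubiquitin ligase gene HUWE1 stood at -0.41 ± 0.20 (0.205). Of 5 co-chaperone and autophagy genes and of 3 tested further relatives, 0 passed edgeR's or DESeq2's test. At an unadjusted p under 0.05, 1 of the first, BAG1, and 0 of the second were lower. When PANC1OR replicate 3 was dropped, and then with GC offsets, 0 rose and 3 fell, then 0 and 1, of the turnover list, 1 and 2, then 1 and 1, of the co-chaperone list, and 1 and 0 both times of the relatives. The list medians were 0.45 for caspases, -0.32 for inhibitors of apoptosis, -0.18 for mitochondrial genes, -0.22 for MCL1 turnover, -0.10 for co-chaperones and -0.14 for relatives. With 6 libraries, edgeR's test called 17.8% of all tested genes, 10.3% higher and 7.5% lower. The shares were 22.1% and 22.0% without PANC1OR replicate 3, and 19.9% and 19.1% with GC offsets. They were 12.1% and 9.56% by DESeq2's Wald test, and 16.5% and 13.4% at an unadjusted p under 0.05 in edgeR's test.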

How the data were processed

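Reads of 6 RNA libraries, 3 per line, were counted by the authors and deposited as raw counts per gene. FastQC 0.11.5, Trim Galore 0.4.2 with cutadapt, STAR 2.5 on GRCh38 and featureCounts of Subread 1.6.2 were used, per the series design text and the submitters' processing notes. The sources used here do not give the annotation release, the strand setting or the handling of reads on overlapping genes. The table's 5 columns without values were not used.

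Genes passing filterByExpr were scaled with TMM and tested with edgeR 4.0.16 (R 4.3.3), quasi-likelihood F test, no covariates, Benjamini-Hochberg adjustment over all 18751 genes. SEs come from the F statistic and intervals from the t distribution with the fit's degrees of freedom. The script was tested on simulated counts without GC trends or a deviating library, so that test does not cover these features of the data. Positions, exon lengths and GC content come from GENCODE 44 (same build), matched by identifier for 18638 tested genes. Exon lengths are unions over transcripts. GC offsets are lowess trends (span 0.3) of each library's deviation from the gene mean. RefSeq promoter windows were found for 8 of the 10 genes. Alternatives were DESeq2 1.42.0, its size factors, the likelihood ratio test, other filters, GC offsets, a replicate block and fits without libraries. List genes were named where called with a mean of at least 1 CPM, up to 4 per list by p-value. The members and lists were chosen with earlier results of these data known. One marker gene is not reported here. Depth limits BCL2 most.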

Additional observations from a re-analysis of the deposited data

How the results depend on the processing

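Across 15 alternatives for each of the 10 genes, 112 of 150 log2 fold changes kept their direction and side of the threshold, 25 passed in addition, 10 no longer passed and 3 changed sign. The sign changes were all of BAX, not called there, in fits without 1 library (-0.56 to 0.21 over these fits). The 10 losses were 8 of BCL2L2 and 2 of BCL2L1.

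Counts over all tested genes were 1939 higher and 1406 lower with 6 libraries. They were 2377 and 1792 with the likelihood ratio test, 3724 and 3583 with GC offsets, 5664 and 5758 with 2 libraries left out (PANC1 replicate 2, PANC1OR replicate 3), and 1103 to 4340 and 718 to 4323 without 1 library. Of the 10 genes, 3 higher and 0 lower became 6 and 1 with GC offsets, 7 and 3 with these 2 libraries left out, 5 higher with the likelihood ratio test, and 1 to 6 higher and 0 to 2 lower without 1 library. The cause was not tested; the SE of BAK1 was 0.35 with 6 libraries, 0.21 without PANC1OR replicate 3 and 0.15 with GC offsets.

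The labels do not say if same-numbered samples were paired. Deviations of same-numbered libraries correlated at 0.464, -0.446 and -0.22, and the highest correlation, 0.512, was between PANC1 replicate 2 and PANC1OR replicate 3. These 2 libraries deviated the same way by GC content, so the correlations cannot show whether the samples were paired. With the replicate block, 1402 genes were higher and 922 lower, and 2 of the 10 were higher and 0 lower, and with the block and GC offsets 3200 and 3063, and 5 and 1. BCL2 had 7 to 50 reads per library, so depth limits its precision. Summed exon lengths overstate the transcript in use where isoforms differ, which shifts the levels per kilobase but no fold change.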

Other observations

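Tested genes starting within 1 Mb of the called genes rose and fell in differing numbers, beside 10.3% risen and 7.5% fallen over all tested genes, or 22.1% and 22.0% without PANC1OR replicate 3. Of 14 neighbours of BCL2A1, 0 rose and 4 fell (median log2 fold change -0.38), while BCL2A1 itself stood at 1.56. The fallen ones with the smallest p-values were CEMIP, a hyaluronan-binding protein gene, from 4.18 to 6.85 CPM in PANC1 to 0.934 to 1.75 in PANC1OR, ARNT2-DT, and ARNT2, a bHLH-PAS transcription factor gene, from 25.7 to 28.9 CPM to 9.43 to 14.5. Of 24 neighbours of BCL2L1, 4 rose and 2 fell (median 0.44). ASXL1, a Polycomb-associated chromatin gene 634341 bases away, rose from 338 to 364 CPM up to 610.0 to 778 CPM, and CCM2L fell from 2.99 to 4.40 CPM down to 0.125 to 0.165. Of 58 neighbours of BCL2L2, 2 rose and 0 fell (median 0.33), the short-chain dehydrogenase gene DHRS2 and C14orf93. The call of DHRS2 was lost without PANC1 replicate 3 (adjusted p = 0.0729), that of ASXL1 without PANC1 replicate 1 (0.0555), and that of C14orf93 when PANC1 replicate 1, PANC1 replicate 3, PANC1OR replicate 1 or PANC1OR replicate 2 was dropped (0.0617 to 0.132). With PANC1OR replicate 3 dropped, the risen and fallen neighbours were 0 and 5 for BCL2A1, 8 and 2 for BCL2L1 and 8 and 1 for BCL2L2. Around the effectors, 0 of 28 neighbours of BOK rose and 5 fell with 6 libraries and 1 and 14 without that library, beside 3 and 2, then 6 and 14, of 35 for BAK1 and 8 and 2, then 8 and 22, of 75 for BAX. For BCL2L12 they were 5 and 3, then 5 and 24, of 65. BAX and BCL2L12 start within 1 Mb of each other on chromosome 19. Each is thus a neighbour of the other, and their counts share genes and are not separate observations.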
